A study of Mus musculus with 27 samples.

Results

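The proteasome genes of colon monocytes, macrophages and CD103+ CD11b- dendritic cells (cDC1s) from mice with and without Mbd2 are described here. The members were every probe whose gene symbol on the array begins with Psma, Psmb, Psmc, Psmd, Psme or Psmf. This rule took 79 probes of 45 symbols, out of 45281 probes of 30869 symbols. Psmb8, Psmb9, Psmb10, Psme1 and Psme2, with 8 probes, are set apart as the immunoproteasome genes, which leaves 71 probes of 40 other symbols. The rule used names alone and no measured value, but it was chosen with earlier results of these data known. It also takes in Psmc3ip, which encodes a recombination factor and not a proteasome subunit. The 7 symbols Psma1, Psma3, Psma6, Psmb11, Psmd2, Psmd3 and Psmd5 had too few detected arrays in each cell type for a test between the genotypes.

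The study asked how the methyl-CpG-binding protein Mbd2 shapes gene expression of myeloid cells in colitis. All mice had a C57BL/6 background. Those of the colon arrays were given 2% dextran sulphate sodium (DSS), an agent that injures the colon lining, in their drinking water. Mbd2-/- mice lack the gene in every cell, and wild type (WT) littermates housed with them were the controls, so each sorted population came from a gut in which all other cells had the same genotype. Cells were sorted from the colon lamina propria as CD11b+ Ly6C+ monocytes, CD11b+ Ly6C- MHC-II+ F4/80+ macrophages and CD11b- CD11c+ CD103+ cDC1s, which the labels name CD11bnegDC. Monocytes and macrophages each had 5 arrays per genotype, and cDC1s had 2 of WT and 3 of Mbd2-/- mice. Each array held RNA of 1 to 5 mice by the deposited record, and the p-values measure the spread between such samples. The limma tests use a spread per probe that all 6 groups of cell type and genotype share. Their SEs and p-values in any cell type therefore also reflect the spread in the others. No colon array came from mice without DSS, so the values say nothing of DSS itself.

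The proteasome is the barrel-shaped protease that degrades ubiquitin-tagged proteins in every cell. Its 20S core stacks outer rings of alpha subunits on inner rings of beta subunits, of which Psmb5, Psmb6 and Psmb7 carry the cutting sites, and a 19S cap of Psmc ATPases and Psmd subunits unfolds the substrate and feeds it in. Interferon-gamma induces Psmb8, Psmb9 and Psmb10, which take the places of Psmb5, Psmb6 and Psmb7 in newly built cores, and Psme1 and Psme2, the alpha and beta chains of the activator ring PA28. The resulting immunoproteasome yields peptides well suited to MHC class I molecules, and Tap1, the transporter subunit that moves these peptides into the endoplasmic reticulum, lies beside Psmb9 in the MHC.

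Start regions of 4 immunoproteasome genes are shown. Psmb9, Psmb10 and Psme1 are those that passed the genotype test together in monocytes, and Psmb8, which did not pass, is shown because its window holds a motif match. RefSeq windows of assembly GRCm38.p6, from 250 bases before to 50 bases after the start site, were found for 38 of the 45 symbols. They were searched on both strands for TTCNNNGAA, the gamma-activated site of interferon-gamma signalling, and for the core of the interferon-stimulated response element, which is GAAA repeated after 2 bases of any kind. These motifs do not overlap each other in the windows printed, and their letters are in capitals. Psmb8 lies at chr17:34197945-34198244 on the plus strand, Psmb9 at chr17:34187281-34187580 on the minus strand, Psmb10 at chr8:105938343-105938642 on the minus strand and Psme1 at chr14:55578244-55578543 on the plus strand.
Psmb8: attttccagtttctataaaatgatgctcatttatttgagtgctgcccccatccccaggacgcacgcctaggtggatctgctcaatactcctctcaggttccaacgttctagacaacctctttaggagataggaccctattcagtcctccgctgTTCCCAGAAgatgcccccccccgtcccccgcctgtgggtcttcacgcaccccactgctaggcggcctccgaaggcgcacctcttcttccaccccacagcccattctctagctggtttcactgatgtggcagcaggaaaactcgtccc
Psmb9: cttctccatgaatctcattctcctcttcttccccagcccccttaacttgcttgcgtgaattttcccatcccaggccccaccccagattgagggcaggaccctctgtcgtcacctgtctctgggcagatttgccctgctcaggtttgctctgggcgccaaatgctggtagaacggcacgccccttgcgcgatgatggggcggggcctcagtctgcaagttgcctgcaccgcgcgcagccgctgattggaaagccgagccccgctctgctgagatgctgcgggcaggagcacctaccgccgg
Psmb10: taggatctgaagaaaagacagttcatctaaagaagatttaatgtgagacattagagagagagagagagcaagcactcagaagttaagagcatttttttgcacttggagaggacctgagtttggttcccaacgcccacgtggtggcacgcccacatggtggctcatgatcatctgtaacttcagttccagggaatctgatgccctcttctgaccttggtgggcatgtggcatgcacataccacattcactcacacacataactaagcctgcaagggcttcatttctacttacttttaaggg
Psme1: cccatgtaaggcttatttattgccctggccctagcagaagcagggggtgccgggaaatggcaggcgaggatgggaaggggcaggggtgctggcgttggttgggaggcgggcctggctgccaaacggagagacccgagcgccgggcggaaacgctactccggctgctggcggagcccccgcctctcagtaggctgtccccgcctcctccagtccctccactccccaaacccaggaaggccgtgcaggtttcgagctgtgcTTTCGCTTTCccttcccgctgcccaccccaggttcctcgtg
The Psmb8 window holds a gamma-activated site whose first base is 97 bases before the start site. It reads the same way on both strands apart from its central bases. The Psme1 window holds the response element core on the minus strand, beginning 10 bases into the transcript, and the windows of Psmb9, Psmb10 and Psme2 hold neither. The start sites of Psmb9 and Tap1 are 226 bases apart on opposite strands, and their windows share 275 bases. Over the 41 windows of members, 2 (4.88%) held the gamma-activated site, against 8.3% of all 32851 windows of this length. The response element core stood in 4 member windows (9.76%), those of Psme1, Psmb3, Psmd4 and Psmd9, against 3.44% of all windows. A match is a description of letters and not of binding.

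Intensities are given as log2 after background correction and quantile normalisation, and a gene is given by its brightest tested probe unless another is named. A gene passed where any of its probes had an adjusted p under 0.05 in limma. When each cell type was normalised and fitted alone, no member passed between the genotypes in any of them. The sorted populations carried their markers. The summed intensity of 9 cDC1 markers on the array was 13158 to 14969 in cDC1s and at most 2266 elsewhere, and that of 11 macrophage markers was 40637 to 46677 in macrophages, 17143 to 21614 in monocytes and at most 5567 in cDC1s. Summed monocyte markers reached 15605 to 26654 in monocytes and at most 9972 elsewhere, but Ccr2 was detected on no more than 2 arrays of any group. The 10 epithelial markers summed to between 4984 and 17718 across all groups. The Mbd2 probe was detected on none of the 25 colon arrays and does not check the genotype labels. Mean raw intensity ran from 171.5 to 353.1 per array, and 16024 to 18608 probes were detected. Array 12, of WT macrophages, stood apart, with 498 of 16834 tested probes more than 1 log2 unit below every other macrophage array, 9 of them members. Array 20, of Mbd2-/- macrophages, had 362 such probes above all others, and array 23, of WT cDC1s, had 502 above and 90 below. In their order of deposit the arrays form runs of 6, the number that a chip of this type holds, but the chips are not named. Monocytes filled runs 1 and 2 and macrophages runs 3 and 4, each with both genotypes.

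In monocytes, 3 immunoproteasome genes were higher in Mbd2-/- mice, and no other member passed the test. The peptide-cutting subunits Psmb9 and Psmb10 and the PA28 chain Psme1 passed the test, each by between 1.35-fold and 1.54-fold. Of 37 member genes tested, 3 passed and all were higher, where 2.19% of all 11992 genes tested passed, with 1.01% of all genes higher and 1.18% lower. None of the 32 tested members outside the immunoproteasome passed. No member passed with a log2 difference of at least 1 as well, where 0.492% of all genes did both. In whole sorted samples, more cells of a kind and more RNA per cell cannot be told apart, here and below.

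Psmb9 measured 11.09, 11.21, 11.06, 11.88 and 11.59 in the 5 WT monocyte arrays and 11.75, 12.03, 11.82, 12.01 and 12.35 in the Mbd2-/- arrays. All Mbd2-/- arrays except array 6 and array 8 lay above every WT array, and those overlapped only with WT array 4. The difference was 0.62 on the log2 scale (SE 0.15, adjusted p = 0.0301). Psmb10, read by its dimmer probe, measured 11.45, 11.18, 11.13, 11.64 and 11.74 in WT and 11.88, 12.05, 11.91, 11.90 and 12.39 in Mbd2-/- monocytes. These groups did not overlap, with a difference of 0.60 (SE 0.14, adjusted p = 0.0312). The brighter Psmb10 probe gave the same size, 0.60 (SE 0.16), with an adjusted p of 0.0599, again without overlap. The dimmer Psme1 probe ran from 11.31 to 12.00 in WT and from 11.92 to 12.31 in Mbd2-/- arrays, a difference of 0.43 (SE 0.11, adjusted p = 0.0427), while the brighter probe differed by 0.24 (adjusted p = 0.312).

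Psmb8, the inducible counterpart of Psmb5, and Psme2, the second chain of PA28, were above WT on average but did not pass. Psmb8 measured 10.49, 9.98, 8.75, 8.95 and 10.23 in WT and 10.79, 11.39, 9.57, 10.70 and 11.50 in Mbd2-/- monocytes. The groups overlapped, and the difference of 1.11 had an SE of 0.72 (adjusted p = 0.532). Its dimmer probe did not overlap, from 8.11 to 9.45 in WT and from 9.46 to 9.91 in Mbd2-/-, with a difference of 0.90 (SE 0.30, adjusted p = 0.141). Psme2 differed by 0.64 (SE 0.37, adjusted p = 0.473). The constitutive catalytic subunits differed less, by 0.23 for Psmb5 (adjusted p = 0.595), 0.25 for Psmb6 (adjusted p = 0.246) and 0.14 for Psmb7 (adjusted p = 0.598), and all 3 lay below 0 when arrays were scaled by their median instead, where the median of all probes was -0.26. The other activators Psme3 and Psme4 stood at -0.34 (adjusted p = 0.273) and -0.04 (adjusted p = 0.897).

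The median difference was 0.62 over the 5 immunoproteasome genes, 0.09 over the other 32 members and -0.03 over all genes tested. In all, 31 of the 37 members lay above 0, against 43.5% of all genes. Only 1 member, Psmb10, had brightest-probe values that did not overlap between the genotypes, which is 2.7% of members against 5.12% of all genes. At an unadjusted p under 0.05, 10 members passed, against 16.4% of all genes. The monocyte differences were unequal between the runs of 6 arrays. In the first run Psmb9 differed by 1.06 and the dimmer Psmb10 probe by 0.89, and in the second by 0.13 and 0.26. With the run as a fixed term no member passed, Psmb9 having an adjusted p of 0.0640 at a difference of 0.60. With the array median as scale no member passed, and Psmb9 was 0.33 higher (adjusted p = 0.42). No member passed without any single one of arrays 1, 2, 3, 7 and 10, 2 members did without array 6, 8 or 9, 3 without array 5 and 4 without array 4, while the share of all genes passing ran from 1% without array 2 to 2.67% without array 4. Psmb9 did not pass without array 1, 2, 3, 7, 9 or 10, at differences between 0.53 and 0.62. Summed monocyte markers were 15605 to 25034 in WT and 22261 to 26654 in Mbd2-/- monocytes, and summed B and plasma cell markers 521 to 732 and 291 to 514. Their part in these differences was not tested.

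**Figure D1:**
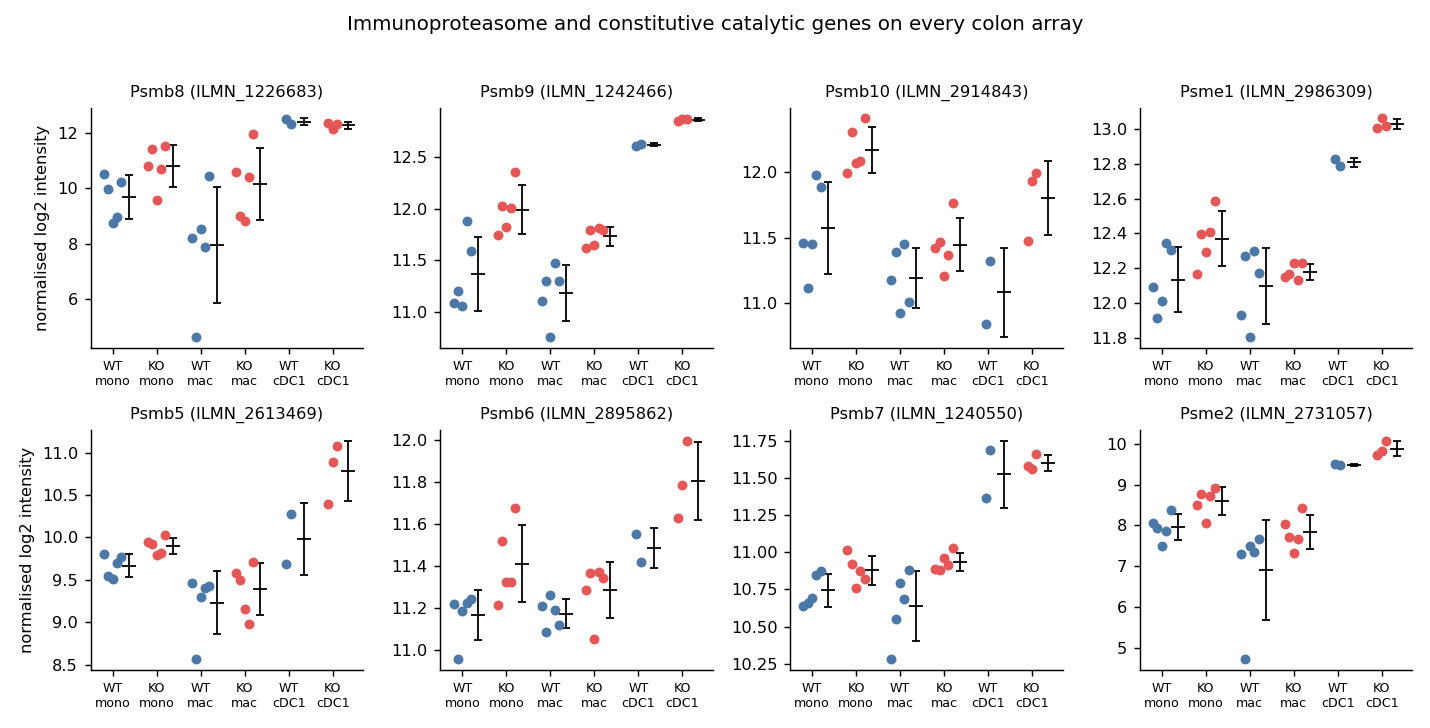
Log2 intensity of the inducible catalytic subunits, their constitutive counterparts and the PA28 chains Psme1 and Psme2 on each colon array, by cell type and genotype. WT arrays are in blue, Mbd2-/- arrays in red and the mean ± SD is a black bar. Psmb9 lies between 11.62 and 11.81 in all Mbd2-/- macrophages and between 10.77 and 11.48 in WT, Psmb8 spreads from 4.64 to 10.42 in WT macrophages, and Psmb8 is above 12 on every cDC1 array.

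In macrophages, 7 members were higher in Mbd2-/- mice and none lower: Psmb9 alone of the immunoproteasome genes, and Psmb7, Psmc2, Psmc5, Psmd10, Psmd11 and Psmd12 of the rest. The 7 of 38 tested members compare with 6.91% of all 12515 genes, where 3.72% were higher and 3.2% lower. Psmb7 is a constitutive catalytic subunit, Psmc2 and Psmc5 are cap ATPases, Psmd11 and Psmd12 belong to the lid of the cap, and Psmd10 is a chaperone that helps to build the base of the cap. Psmb7, Psmc2, Psmc5 and Psmd10 passed with a log2 difference of at least 1 as well, 4 members where 1.83% of all genes did both.

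Psmb9 measured 11.11, 11.30, 10.77, 11.48 and 11.30 in WT and 11.62, 11.79, 11.65, 11.81 and 11.79 in Mbd2-/- macrophages. Every Mbd2-/- array was above every WT array. The difference was 0.54 (SE 0.15, adjusted p = 0.0366), or 1.46-fold, and it was positive in both runs, 0.75 and 0.30. Psmb10 differed by 0.26 with either probe (adjusted p = 0.347 and 0.269). Psme1 differed by 0.08 (adjusted p = 0.666).

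Psmb8 and Psme2 had large mean differences that rested in part on array 12. Psmb8 measured 8.22, 4.64, 8.51, 7.89 and 10.42 in WT and 10.56, 9.01, 8.81, 10.38 and 11.96 in Mbd2-/- macrophages. The 4.64 was array 12, and WT array 15 lay among the Mbd2-/- values. The difference was 2.21 (SE 0.72, adjusted p = 0.0676), 1.39 without array 12 (adjusted p = 0.216) and 2.83 without array 15, where it passed (adjusted p = 0.0142). By run it was 4.05 and 0.30, and with the dimmer Psmb8 probe 1.33 and 0.39. Psme2 measured 7.31, 4.72, 7.49, 7.35 and 7.67 in WT and 8.02, 7.71, 7.31, 7.67 and 8.44 in Mbd2-/- macrophages. Its difference of 0.92 (adjusted p = 0.139) was 0.37 without array 12.

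Of the 6 members outside the immunoproteasome that passed, Psmb7, Psmc2, Psmc5 and Psmd10 did so through probes that were not the brightest of their gene. Psmc5 measured 8.02, 5.80, 8.06, 7.48 and 8.45 in WT and 8.77, 8.42, 8.92, 9.32 and 9.86 in Mbd2-/- macrophages with the probe that passed, a difference of 1.50 (SE 0.37, adjusted p = 0.0245). Its brighter probe differed by -0.03 (adjusted p = 0.85). The passing Psmd10 probe measured 6.16, 4.68, 6.57, 6.11 and 6.29 in WT and 6.67, 6.79, 7.41, 7.64 and 8.30 in Mbd2-/- arrays, a difference of 1.40 (SE 0.32, adjusted p = 0.0152), against 0.17 and 0.32 for its brighter probes (adjusted p = 0.347 and 0.127). In both genes array 12 was the lowest WT array, and the Psmd10 groups did not overlap.

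Psmb7 has 4 probes, and they differed in size. Probe ILMN_1221340 measured 8.21, 5.96, 9.03, 8.80 and 9.71 in WT and 9.67, 9.28, 9.73, 10.06 and 10.31 in Mbd2-/- macrophages, a difference of 1.47 (SE 0.43, adjusted p = 0.045). The brightest probe differed by 0.29 (SE 0.10, adjusted p = 0.0798) without overlap, and the remaining probes by 0.65 (adjusted p = 0.0497) and -0.07 (adjusted p = 0.779). The dimmer Psmc2 probe differed by 1.11 (SE 0.31, adjusted p = 0.0369) and its brighter probe by 0.10 (adjusted p = 0.503). Array 12 gave 4.63 for the dimmer Psmc2 probe, which was detected on 4 of the 5 WT arrays.

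Psmd11 and Psmd12 passed with their brightest probes. Psmd11 measured 6.92, 6.34, 6.94, 7.20 and 7.52 in WT and 7.32, 7.41, 7.68, 7.58 and 7.58 in Mbd2-/- macrophages, a difference of 0.53 (SE 0.15, adjusted p = 0.0439). Psmd12 measured 9.10, 8.14, 9.09, 9.04 and 9.32 in WT and 9.22, 9.33, 9.56, 9.47 and 9.80 in Mbd2-/- arrays, a difference of 0.54 (SE 0.16, adjusted p = 0.0455). In both genes the genotypes overlapped at the highest WT arrays.

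Array 12 was the lowest array for the probes given for these 6 genes. Without it 1 member passed, Psmd10 at 1.08 (adjusted p = 0.0437), while Psmb9 kept its size at 0.57 (adjusted p = 0.065). Without array 20 none passed, with Psmd10 at 1.18 (adjusted p = 0.0529) and Psmb9 at 0.53 (adjusted p = 0.0936). The count was 1 without array 19, 2 without array 14 or 18, 3 without array 11, 4 without array 13, 6 without array 16 or 17 and 11 without array 15, while the share of all genes passing ran from 2.05% without array 20 to 11.3% without array 15. Psmb9 did not pass without array 11, 12, 13, 17, 18, 19 or 20, at differences from 0.44 to 0.57. With the run as a fixed term 3 members passed (7.38% of all genes), and with the array median as scale 2 did (1.35%). The median difference was 0.54 over the immunoproteasome genes, 0.03 over the other members and -0.08 over all genes. Members above 0 numbered 23 of 38, against 36.7% of all genes, and 2 of 38 (5.26%) did not overlap by their brightest probe, against 5.21% of all genes. Summed monocyte markers were 4151 to 6829 in WT and 5980 to 8030 in Mbd2-/- macrophages, and their part was not tested.

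**Figure D2:**
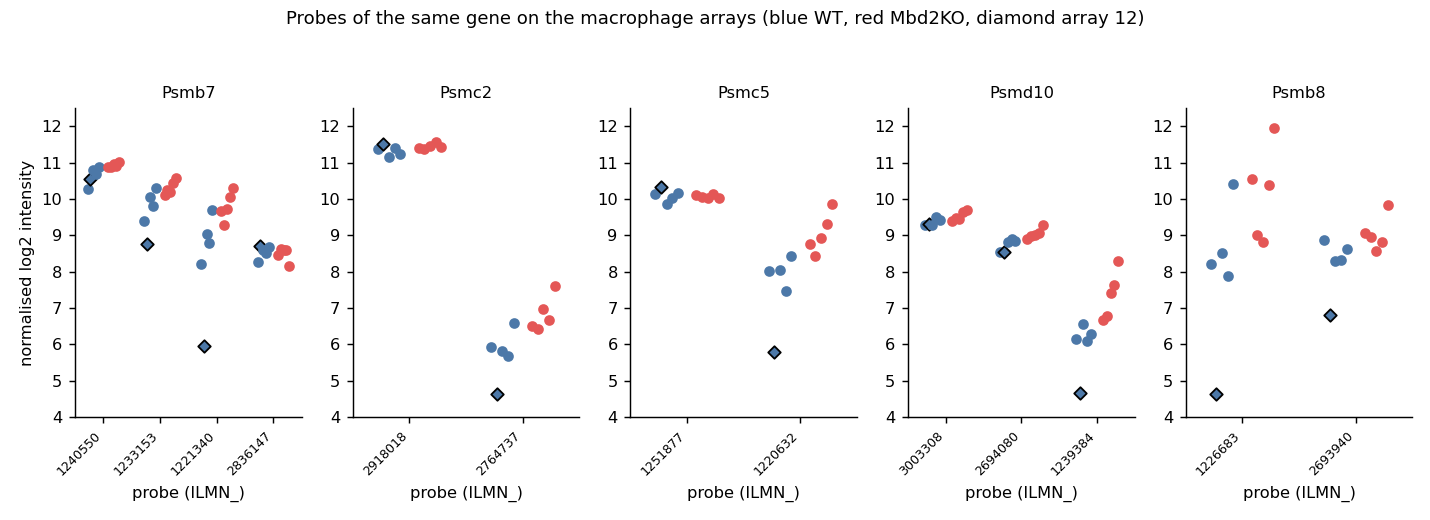
Log2 intensity of each tested probe of Psmb7, Psmc2, Psmc5, Psmd10 and Psmb8 on WT and Mbd2-/- macrophage arrays, with array 12 drawn as a diamond. Psmb8 did not pass in macrophages, and the passing members Psmb9, Psmd11 and Psmd12 are not drawn. Array 12 lies at 5.80 for the Psmc5 probe that passed and at 4.68 for that of Psmd10, in both cases below the other 4 WT arrays.

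In cDC1s, 3 members passed: Psmb10, the inhibitor Psmf1 and Psmd1, the scaffold of the cap base. Of 38 members tested these compare with 8.23% of all 13051 genes, and 3 genes had a probe that rose (4.34% of all genes) and 1 a probe that fell (3.95%). With 2 WT arrays this comparison is the least precise, and its WT and Mbd2-/- arrays lay in different runs of 6, so run and genotype cannot be told apart.

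The dimmer Psmb10 probe measured 10.72 and 10.81 in WT and 11.34, 11.83 and 11.64 in Mbd2-/- cDC1s. Both WT arrays were below all Mbd2-/- arrays, by 0.84 on average (SE 0.21, adjusted p = 0.0187). The brighter probe measured 10.84 and 11.32 in WT and 11.48, 11.94 and 11.99 in Mbd2-/-, a difference of 0.72 (SE 0.23, adjusted p = 0.063). Psmf1 measured 9.18 and 9.53 in WT and 9.76, 9.86 and 9.87 in Mbd2-/- cDC1s, a difference of 0.47 (SE 0.13, adjusted p = 0.0348) that was -0.054 with the array median as scale, where the median of all probes was -0.37 in place of 0.026.

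Psmd1 probes disagreed in direction. Probe ILMN_2440046 measured 11.34 and 11.37 in WT and 10.86, 10.80 and 10.65 in Mbd2-/- cDC1s, a difference of -0.58 (SE 0.15, adjusted p = 0.0234). The dim probe ILMN_2915861 measured 6.17 and 7.51 in WT and 7.55, 7.94 and 8.08 in Mbd2-/-, a difference of 1.02 (SE 0.27, adjusted p = 0.0265). The brightest Psmd1 probe differed by -0.31 without passing (adjusted p = 0.23). The direction of Psmd1 in cDC1s is not settled by these probes. Psmd1 was also the 1 member that passed with a log2 difference of at least 1, where 2.34% of all genes did both.

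The other immunoproteasome genes did not pass in cDC1s. Psmb9 measured 12.61 and 12.63 in WT and 12.85, 12.86 and 12.87 in Mbd2-/- arrays, a difference of 0.24 without overlap (SE 0.21, adjusted p = 0.526). Psmb8 measured 12.47 and 12.31 in WT and 12.34, 12.12 and 12.33 in Mbd2-/- arrays, a difference of -0.13 (SE 1.04, adjusted p = 0.958) that was 0.076 under cyclic loess. The SEs of Psmb9 and Psmb8 rest on the spread shared by all groups, which for Psmb8 was far wider in monocytes and macrophages. Psmb5 measured 9.68 and 10.28 in WT and 10.39, 10.89 and 11.08 in Mbd2-/- cDC1s, a difference of 0.81 (SE 0.25, adjusted p = 0.0523) without overlap. The median difference was 0.24 over the immunoproteasome genes, 0.13 over the other members and 0.05 over all genes, and 28 of 38 members lay above 0, against 54.7% of all genes. In all, 21 of 38 members (55.3%) did not overlap, against 32% of all genes. They included 4 of the 5 immunoproteasome genes, each higher in Mbd2-/- cDC1s.

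No member passed in cDC1s without array 23 or array 30, 2 did without array 28, 5 without array 27 and 8 without array 26, while the share of all genes passing ran from 3.1% without array 23 and 3.61% without array 30 to 13.5% without array 26. Without array 23 the dimmer Psmb10 probe stood at 0.79 (adjusted p = 0.122), Psmf1 at 0.30 (adjusted p = 0.339), the falling Psmd1 probe at -0.60 (adjusted p = 0.101) and the rising one at 0.35 (adjusted p = 0.533). Psmb10 was at 0.82 without array 30 (adjusted p = 0.0543) and at 0.72 without array 28 (adjusted p = 0.0665). With the array median as scale no member passed. Summed monocyte markers were 6731 to 7086 in WT and 7886 to 9972 in Mbd2-/- cDC1s, and summed macrophage markers 2534 to 2674 and 2907 to 5567, and their part was not tested.

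**Figure D3:**
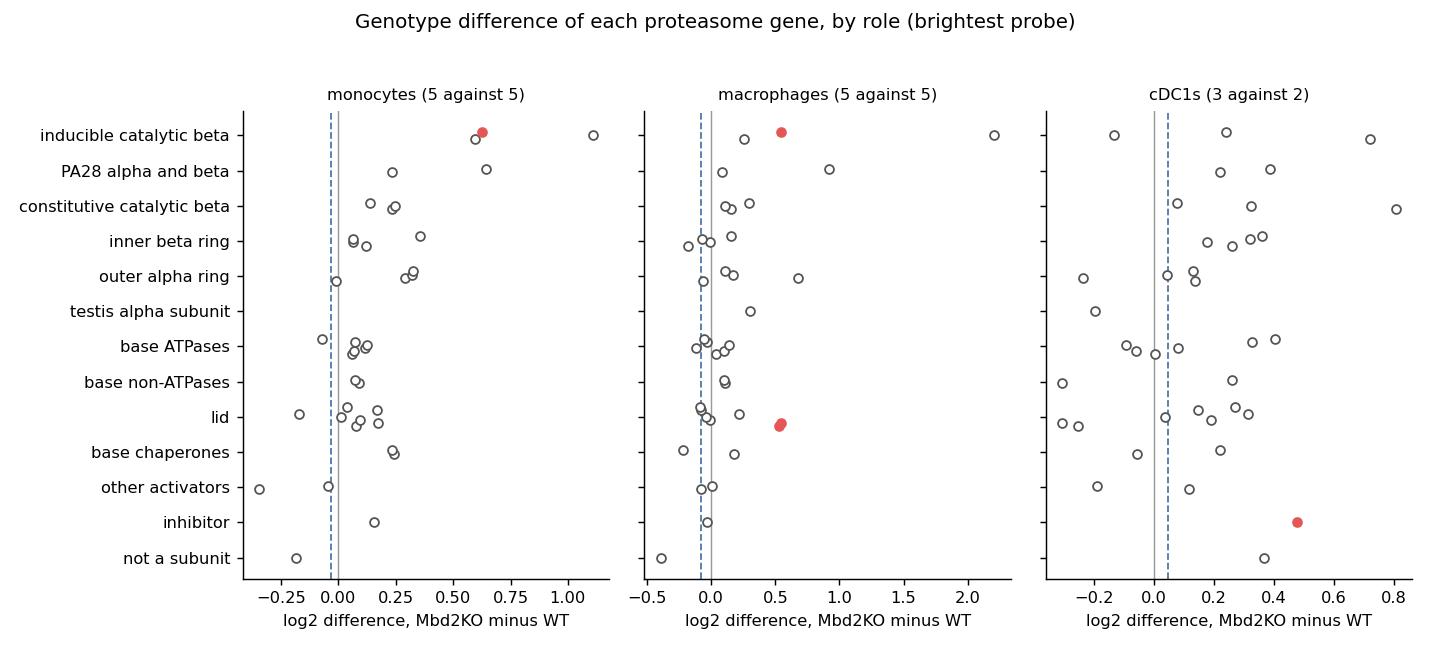
Log2 difference, Mbd2-/- minus WT, of the brightest tested probe of each member, by its role in the proteasome, in monocytes, macrophages and cDC1s, with the members whose brightest probe passed in filled red, a grey line at 0 and the median of all genes tested as a dashed blue line. The inducible catalytic subunits and PA28 chains lie above the dashed line in monocytes and macrophages, with medians of 0.62 and 0.54 over these 5 genes, while the other members have medians of 0.09 and 0.03.

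Whether an inducible subunit moved apart from the subunit it replaces was asked on each array, as the difference between their brightest probes. The level of such a difference has no meaning across probes, but its change between genotypes shows unequal change. For Psmb9 minus Psmb6 it ran from -0.50 to 0.28 in WT and from 0.33 to 0.60 in Mbd2-/- macrophages. The groups did not overlap, and the genotype difference was 0.43 (exact two-sided permutation test, p = 0.00794, which is 0.0476 adjusted over 6 tests). Without any single array other than array 15 the adjusted p was 0.0714, at differences from 0.30 to 0.50. The exact p was 0.0159 for every array left out, the lowest the test can give with 1 array fewer. The adjusted p therefore cannot show whether the result rests on single arrays. In monocytes the same pair differed by 0.38 (exact permutation p = 0.0397, adjusted p = 0.0794). Psmb10 minus Psmb7 differed by 0.46 in monocytes (exact permutation p = 0.0238, adjusted p = 0.0714) and by -0.04 in macrophages (exact permutation p = 0.841). Psmb8 minus Psmb5 differed by 0.87 in monocytes (exact permutation p = 0.0873, adjusted p = 0.105) and by 2.05 in macrophages (exact permutation p = 0.0556, adjusted p = 0.0833). In cDC1s the pairs differed by -0.94, -0.08 and 0.65 for Psmb8, Psmb9 and Psmb10 minus their counterparts, where 2 arrays against 3 cannot give an exact p under 0.2.

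The genotype difference itself was not shown to depend on the cell type for any immunoproteasome gene. Between macrophages and monocytes no member passed the interaction test, where 0.0362% of all genes did, and 2 members had an unadjusted p under 0.05 (8.92% of all genes). Psmb9 differed by -0.08 there (SE 0.21, adjusted p = 0.968) and Psmb8 by 1.10 (SE 1.01, adjusted p = 0.874). Between cDC1s and monocytes none passed either (1.15% of all genes), with 1 member at an unadjusted p under 0.05 (20% of all genes), and Psmb9 differed by -0.38 (SE 0.26, adjusted p = 0.482). Between cDC1s and macrophages 1 member passed (8.37% of all genes), the Psmd1 probe ILMN_2440046 at -0.72 (SE 0.18, adjusted p = 0.0231), and 20 members had an unadjusted p under 0.05 (27.7% of all genes). It did not pass without array 23 (-0.74, adjusted p = 0.0928) or array 30 (-0.66, adjusted p = 0.0615). Psmb8 differed by -2.34 (SE 1.26, adjusted p = 0.272) and the dimmer Psmb10 probe by 0.57 (SE 0.25, adjusted p = 0.163).

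Cell types were compared by the mean of the WT and Mbd2-/- differences. WT cDC1s shared runs of arrays with monocytes, and Mbd2-/- cDC1s, apart from array 30, with macrophages. Run and cell type were therefore partly confounded in each comparison of cDC1s. They were wholly confounded between macrophages and monocytes, which shared no run. cDC1s carried more proteasome transcript than either other population under quantile normalisation, with Psmb8, Psme2 and Psmb9 the largest increases by the brightest probe of each gene, apart from Psmc3ip, which is not a subunit. Against macrophages, 31 of 42 members passed, 30 higher and 2 lower with Psmd9 in both directions by different probes, where 45.9% of all genes passed, 24.1% higher and 22.4% lower. Against monocytes, 29 of 40 members passed, 26 higher and 3 lower, where 46.5% of all genes passed, 24.9% higher and 22% lower. A log2 difference of at least 1 was passed as well by 10 members against macrophages (14.1% of all genes) and by 9 against monocytes (14.7%). This split depended on the scale: with the array median as scale, 10 members were higher and 6 lower against macrophages, where 39.9% of all genes passed, and 5 higher and 6 lower against monocytes, where 39.6% did. That scale set the median of all probes to -0.14 against macrophages and -0.15 against monocytes. The median member difference stood 0.38 above the median of all genes against macrophages and 0.35 against monocytes under quantile normalisation, and with the array median these values were 0.16 and -0.02.

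Psmb8, read by its brighter probe alone, was 3.29 higher in cDC1s than in macrophages (SE 0.63, adjusted p = 0.000157) and 2.09 higher than in monocytes (SE 0.63, adjusted p = 0.00898). Its 5 cDC1 arrays lay between 12.12 and 12.47, above all 20 other arrays, which reached 11.96. Psmb9 was 1.28 higher than in macrophages (SE 0.13, adjusted p = 1.79e-08) and 1.06 higher than in monocytes (SE 0.13, adjusted p = 3.23e-07), with cDC1 arrays between 12.61 and 12.87 and no overlap. Psme2 was 2.31 higher than in macrophages (adjusted p = 3.31e-06) and 1.41 higher than in monocytes (adjusted p = 0.00107), and Psme1 was 0.78 and 0.67 higher (adjusted p = 1.44e-07 and 1.59e-06). Psmb10 went the other way. It was highest in monocytes, with cDC1s at -0.43 (adjusted p = 0.0141) and macrophages at -0.56 (adjusted p = 0.000452), and cDC1s and macrophages did not pass against each other (0.12, adjusted p = 0.523, and -0.36 with the array median). Psmb10 did not pass between cDC1s and monocytes without array 23 (-0.31, adjusted p = 0.157) or array 27 (-0.35, adjusted p = 0.0527).

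The constitutive catalytic subunits were also higher in cDC1s. Against macrophages, Psmb5 was 1.08 higher (adjusted p = 2.49e-06), Psmb7 0.78 (adjusted p = 6.54e-08) and Psmb6 0.42 (adjusted p = 0.000262), of which Psmb6 turned to -0.086 with the array median. Against monocytes they were 0.60, 0.75 and 0.36 higher, and with the array median Psmb5 turned to -0.0026 and Psmb6 to -0.29 there. Medians by role against macrophages were 1.28 for the inducible catalytic subunits, 1.54 for the PA28 chains, 0.78 for the constitutive catalytic subunits, 0.57 for the rest of the beta ring, 0.38 for the alpha ring, 0.36 for the lid and 0.19 for the cap ATPases. Among the other members, the largest increases against macrophages were those of Psmc3ip (0.98), the alpha subunits Psma7 (0.93) and Psma4 (0.85), the lid subunit Psmd13 (0.81) and the beta subunit Psmb4 (0.73). Against monocytes they were Psmc3ip (1.80), Psma4 (0.70), Psmd13 (0.62), Psmf1 (0.61) and the ATPase Psmc3 (0.60), of which Psmd13 and Psmc3 turned to -0.031 and -0.035 with the array median. Psme4, an activator known from nuclear protein turnover, was lower in cDC1s than in macrophages (-0.48, adjusted p = 5.99e-05) and monocytes (-0.57, adjusted p = 8.43e-06). The brighter probe of Psmd9, a chaperone of the cap base, was also lower, at -0.54 and -0.38 (adjusted p = 0.00242 and 0.0253), and did not pass against monocytes without array 23 (-0.33, adjusted p = 0.138) or array 28 (-0.31, adjusted p = 0.0853).

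Each genotype was also read alone. Among WT arrays, 22 of 38 members passed between cDC1s and monocytes, which share runs of 6, where 39.5% of all genes passed, with Psmb9 at 1.25 (adjusted p = 2.06e-05) and Psmb8 at 2.71 (adjusted p = 0.0279). Among Mbd2-/- arrays, 30 of 38 passed between cDC1s and macrophages, where 49.2% of all genes passed, with Psmb9 at 1.12 (adjusted p = 9.84e-06) and Psmb8 at 2.11 (adjusted p = 0.0412). Psmb8 did not pass between Mbd2-/- cDC1s and monocytes (1.47, adjusted p = 0.157). Summed T and NK cell markers were 1017 to 3977 in cDC1s and at most 614 in the other groups, and their part was not tested.

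Between macrophages and monocytes, 15 of 38 members (39.5%) passed, 5 higher in macrophages and 10 lower. A similar share of all genes passed, 38%, with 21.4% higher and 16.8% lower. No run of arrays held both cell types, so run and cell type cannot be told apart in this comparison. Of the 5 immunoproteasome genes, 4 were lower. Psme2 was at -0.90 (adjusted p = 0.00967) and Psmb10 at -0.56, while Psmb8 and Psme1 passed by their dimmer probes, at -0.59 (adjusted p = 0.0336) and -0.27 (adjusted p = 0.00829). Psmb9 was at -0.22 (adjusted p = 0.117). The core subunits Psma7 (-0.66, adjusted p = 0.000139), Psmb5 (-0.48, adjusted p = 0.00351) and Psmb4 (-0.45, adjusted p = 0.000513) were lower, and so were Psmd13 (-0.19), Psmb3 (-0.18) and Psma2 (-0.17). Psmc3ip (0.83), Psmd1 (0.36, adjusted p = 0.000661), Psmc1 (0.19), Psmc2 (0.17) and Psmd7 (0.17) were higher in macrophages. In WT arrays alone 7 of 37 members passed (26.7% of all genes) and in Mbd2-/- arrays alone 11 of 38 (30.7% of all genes). Psmc2 and Psmd7 did not pass without any one of 10 and 14 of the arrays.

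**Figure D4:**
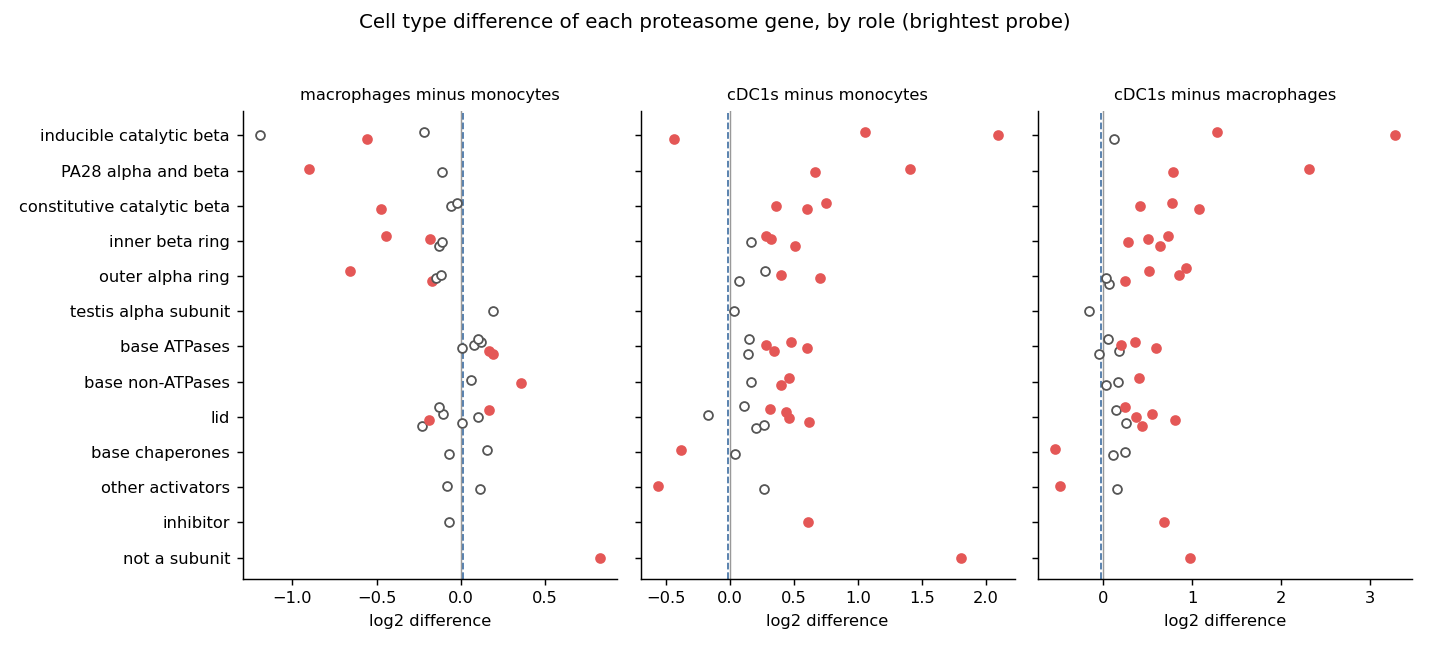
Log2 difference between cell types, as the mean over both genotypes, of the brightest tested probe of each member by its role, with the members whose brightest probe passed in filled red, a grey line at 0 and the median of all genes tested as a dashed blue line. Against macrophages and against monocytes most members are higher in cDC1s, with Psmb8 farthest out at 3.29 and 2.09, and between macrophages and monocytes all core subunits other than Psma8 lie below 0 and all cap ATPases above it.

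Genes that work with the proteasome were read from lists fixed beside the members, with earlier results of these data known. Of 11 class I antigen processing partners, 2 rose in Mbd2-/- monocytes and none fell, where 1.01% of all genes rose and 1.18% fell. All 11 lay above 0 with a median of 0.21, against 43.5% of all genes above 0. Tap1 ran from 9.03 to 10.11 in WT and from 10.37 to 10.84 in Mbd2-/- monocytes, a difference of 0.89 (adjusted p = 0.0236). Tapbpl, which edits the peptides of class I molecules, differed by 0.76 (adjusted p = 0.03). In macrophages 3 of 11 rose, where 3.72% of all genes did. Tap1 ran from 8.59 to 9.48 in WT and from 9.63 to 10.39 in Mbd2-/- arrays, a difference of 0.82 (adjusted p = 0.0249). The class I heavy chain H2-D1 differed by 0.45 (adjusted p = 0.038) and H2-K1 by 1.31 with a dimmer probe (adjusted p = 0.0088). Neither Tap1 nor Psmb9, whose start windows overlap, overlapped between the genotypes in macrophages. In cDC1s none of the 11 passed, where 8.23% of all genes did.

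With the array median as scale, 0 of the 11 class I partners passed in monocytes (0.575% of all genes) and 1 in macrophages (1.35%). With the run as a fixed term, 0 passed in monocytes (1.81%) and 2 in macrophages (7.38%). Tap1 did not pass without array 2, 3, 8 or 10 in monocytes (0.73 to 0.85) and without array 12, 13, 19 or 20 in macrophages (0.69 to 0.84). Tapbpl did not pass in monocytes without array 1, 2, 3, 7, 8, 9 or 10 (0.65 to 0.77), and H2-D1 did not pass in macrophages without array 11, 12, 13, 14, 18, 19 or 20 (0.34 to 0.49). Of 9 assembly and bound factors tested, none passed in monocytes, where 2.19% of all genes did. In macrophages 1 did (6.91% of all genes), the cap-bound deubiquitinase Uchl5 by a dimmer probe (0.96, adjusted p = 0.0398). Uchl5 did not pass without array 11, 12, 14, 18, 19 or 20 (0.63 to 1.01). In cDC1s 2 did (8.23% of all genes), the core assembly chaperones Psmg3 and Psmg2. Psmg3 differed by 0.85 (adjusted p = 0.0129), and by 0.73 with an adjusted p of 0.122 without array 23. Psmg2 passed by its dimmer probes, which did not pass without array 23, 28 or 30. None of 14 or 15 ubiquitin and shuttle genes passed between the genotypes in any cell type.

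Assembly factors of the core were also higher in cDC1s. Pomp, the maturation factor of the core, was 0.75 higher in cDC1s than in monocytes and 0.95 higher than in macrophages, and Psmg3 was 0.64 and 1.03 higher. Of the assembly and bound factors, 6 of 9 were higher in cDC1s than in monocytes (24.9% of all genes) and 5 of 10 higher than in macrophages (24.1%), and none was lower. With the array median as scale, 2 were higher and 2 lower than in monocytes, and 2 higher and 1 lower than in macrophages. Of the class I partners, 7 of 12 were higher and 2 lower in cDC1s than in macrophages, with Irf1 in both directions by different probes, where 24.1% of all genes were higher and 22.4% lower. With the array median as scale, 4 were higher and 3 lower. Tap2 was 1.11 and the chaperone Calr 1.60 higher.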

How the data were processed

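RNA of cells sorted from 25 colon samples was hybridised to Illumina MouseWG-6 arrays. The authors deposited raw bead intensity for each probe, without normalisation, and a detection p-value computed per array against its negative control probes. The submitters' processing notes name lumi and limma, with no versions. Here intensities were corrected by normexp with 936 negative control probes and an offset of 16, quantile normalised over the 25 arrays and taken to log2 (R 4.3.3, limma 3.58.1). One limma model over 6 groups was used. To be tested, a probe needed a detection p under 0.05 on as many arrays as the smallest group compared, with Benjamini-Hochberg adjustment over all probes tested. The 5 immunoproteasome genes, their counterparts and members that passed between genotypes are named, with the 5 other members of largest change per direction between cell types. Members and lists were chosen with earlier results of these data known. Of 70 member probes with an accession, 67 matched RefSeq and 0 matched another symbol. Alternatives were the background, scale, filter, thresholds, probe choice, array weights, runs of arrays and leaving out each array. The model was tested on simulated data with independent normal noise and the same spread per probe in all groups. That test does not cover unequal spreads, run effects or outlying arrays. Precision is limited by how many arrays there are. A further 3 signal columns match no sample and were not used. Of the partner lists, 1 gene was left out and is not reported here.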

Additional observations from a re-analysis of the deposited data

Results flagged for a closer look

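In 7 of 72 groups of 5 arrays examined, 1 array lay far from the others by Dixon's test, where chance flags about 1 in 20. Array 12 of WT macrophages accounts for 4 of these, each time as the lowest array. Its gap to the next array over the group's range was 0.814 for Psmb5 (8.57 against 9.29), 0.876 for Psme2 (4.72 against 7.31), 0.757 for the Psmd10 probe ILMN_1239384 (4.68 against 6.11) and 0.761 for Psmd12 (8.14 against 9.04). Psmb6 was low on array 2 of WT monocytes (10.96 against 11.19, ratio 0.81) and on array 18 of Mbd2-/- macrophages (11.05 against 11.29, ratio 0.731). Tap1 was high on array 20 of Mbd2-/- macrophages (10.39 against 9.81, ratio 0.77).

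The genotype difference of the Psmd1 probe ILMN_2440046 differed by -0.724 between cDC1s and macrophages in the interaction test, and it did not pass without array 23 or 30.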

How the results depend on the processing

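The number of member genes passing kept within 1.5 times its value between cell types except for macrophages against monocytes in WT arrays alone (7), cDC1s under median scaling and the stricter thresholds, while every genotype count moved under several alternatives. Median scaling shifted the median of all probes by -0.26 in the monocyte and -0.37 in the cDC1 genotype comparison, and left 0 members in monocytes, 2 in macrophages, 0 in cDC1s, 11 for cDC1s against monocytes, 15 for cDC1s against macrophages and 4 for the interaction of cDC1s against macrophages. No background correction and an offset of 50 each gave 5 in cDC1s and 1 and 3 for the interactions of cDC1s against monocytes and against macrophages. Cyclic loess gave 6 in cDC1s. Normalising and fitting each cell type alone, without the spread shared over 6 groups, gave 0 in all of them. The median member difference was then 0.12 in monocytes, 0.10 in macrophages and 0.17 in cDC1s, against 0.12, 0.10 and 0.16 in the main setting. Without a filter 0 passed in monocytes, 1 in macrophages and 2 in the interaction of cDC1s against macrophages, and the strict filter gave 1 and 4 for the cDC1 interactions. At an adjusted p under 0.01 the counts were 0 for each genotype comparison, 9 for macrophages against monocytes and 0 for the interaction, and with a log2 difference of at least 1 they were 0, 4 and 1 by genotype, 0, 9 and 10 between cell types and 0 for the interaction. The brightest probe alone gave 1, 3 and 1 by genotype and 0 for the interaction, and array weights 5, 3, 0 and 0. The run of 6 as a fixed term left 0 in monocytes and 3 in macrophages, and as a random block (correlation 0.0182) changed no count. Leaving out 1 array at a time gave 0 to 4 in monocytes, 0 to 11 in macrophages, 0 to 8 in cDC1s, 0 to 4 for the interaction of cDC1s against monocytes and 0 to 7 for that against macrophages. The cause of these shifts was not tested.

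Leaving out 1 array at a time moved the paired differences of Psmb8 minus Psmb5 between 0.68 and 1.15 in monocytes (adjusted p = 0.0476 without array 8) and 1.40 and 2.62 in macrophages (0.0476 without array 15), of Psmb9 minus Psmb6 between 0.30 and 0.49 in monocytes (0.0476 without array 4), 0.30 and 0.50 in macrophages (0.0714 without any array but 15) and -0.16 and 0.010 in cDC1s (without array 30), and of Psmb10 minus Psmb7 between 0.37 and 0.54 in monocytes (0.0476 without array 6) and -0.15 and 0.047 in macrophages (without array 11). With 1 array left out the exact test cannot give a p under 0.0159 in monocytes or macrophages. Psmb9 minus Psmb6 in cDC1s became 0.13 under median scaling and 0.11 under cyclic loess. Genes whose difference changed sign under median scaling were Psmb5 (-0.093), Psmb6 (-0.050) and Psmb7 (-0.15) in monocytes, Psmb6 (-0.0060) and Psme4 (-0.10) in macrophages, and Psmb6 (-0.028), Psmb7 (-0.29), Psme2 (-0.14), Psme3 (-0.48) and Psmf1 (-0.054) in cDC1s. Between cell types they were Psmb5 (-0.0026), Psmb6 (-0.29), Psme3 (-0.30), Psmd13 (-0.031) and Psmc3 (-0.035) against monocytes and Psmb10 (-0.36), Psmb6 (-0.086) and Psme3 (-0.40) against macrophages. Psmb8 in cDC1s became 0.076 under cyclic loess. In macrophages Psme4 became -0.0049 and the brighter Psmc5 probe 0.0026 under array weights, and Psme4 -0.019 with the run as a fixed term. WT arrays alone gave Psmb6 0.0072 and Psme3 -0.020 for macrophages against monocytes and Psmb10 -0.11 for cDC1s against macrophages, and Mbd2-/- arrays alone gave Psmb7 0.055 for macrophages against monocytes. Leaving out 1 array gave sign changes within these ranges. In macrophages they were -0.012 (without array 12) to 0.26 for Psmb5, -0.12 to 0.0017 (array 20) for Psme3, -0.034 (array 19) to 0.044 for Psme4 and -0.093 to 0.021 (array 12) for the brighter Psmc5 probe. In cDC1s they were -0.084 (array 23) to 0.24 for Psmb7, -0.38 (array 23) to 0.61 for Psme3 and -0.47 to 0.087 (array 26) for Psme4. Between cell types they were -0.055 to 0.019 (array 11) for Psmb7 in macrophages against monocytes and -0.093 (array 26) to 0.40 for Psme3 in cDC1s against macrophages. No paired analysis was possible because the groups share no replicate number.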

Other observations

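The record also holds 2 arrays of splenic CD4 T cells, 1 of WT and 1 of Mbd2-/- mice, which entered no comparison above. No DSS dose is listed for them. Normalised with all arrays, the immunoproteasome genes measured in log2 intensity 12.47 in WT and 12.45 in Mbd2-/- T cells for Psmb8, 11.80 and 12.21 for Psmb9, 11.74 and 12.04 for Psmb10, 12.00 and 12.53 for Psme1 and 8.26 and 8.35 for Psme2. Psmb5, the constitutive counterpart of Psmb8, measured 10.28 and 10.68. With 1 array per genotype these differences have no replicate check.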
